A study of Mus musculus with 16 samples.

Results

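The genes described here are the expressed lincRNA genes of mouse embryonic stem cells (mESC), meaning genes that GENCODE vM21 gives the type lincRNA (long intergenic noncoding RNA) and that carried a mean of 100 or more UMIs over the 8 input libraries. UMIs are unique molecular identifiers, so each count stands for 1 tagged cDNA molecule. The table held 53379 genes, of which 5248 had the type lincRNA, and 133 of these were chosen by their mean input UMIs. Not among them were 9 lincRNA genes above the threshold that the rule sets aside by symbol, and 5101 that lay below it or at 0, the rest being symbols set aside that also lay below it. Of all lincRNA genes 1884 had no UMI in any library. Because input levels chose the members, those levels and the comparison of the inputs of both protocols are given as a description only. The ratios of IP to input contain those input levels too.

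LincRNAs are transcribed by RNA polymerase II from loci between protein-coding genes, and many are spliced, capped and polyadenylated like mRNAs. Several stay in the nucleus close to where they are made, where some bind chromatin regulators or transcription factors, and others act in the cytoplasm on mRNAs or microRNAs. In embryonic stem cells a group of lincRNAs is expressed together with the pluripotency factors, of which Sox2, the protein pulled down here, is an HMG-box transcription factor.

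Male mESC were grown on gelatin with serum, LIF, PD0325901 (1 µM) and CHIR99021 (3 µM), and were crosslinked either with formaldehyde (fRIP, which also retains RNA held near Sox2 through other proteins) or with ultraviolet light (UV-RIP, which joins RNA to protein in direct contact). RNA pulled down with a Sox2 antibody (IP) and RNA of the same precleared lysate without pull-down (input) were depleted of ribosomal RNA and sequenced, with 4 IP and 4 input libraries in each protocol, numbered 3 to 6. The labels give no genetic change for any group, the numbers stand for biological replicates, and no library of a control antibody was analysed here. In these bulk lysates, less RNA per cell cannot be told apart from fewer cells with the RNA.

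Library totals ranged from 12456298 to 21211537 UMIs. Of 8 stem cell markers 7 had a mean input level over 1 CPM (UMIs scaled to library totals of 1000000), and fibroblast, primitive endoderm, neural, primed and 2-cell-like lists each summed to at most 8.66 CPM in any input. The exception was Sox2 itself, listed at 0 in all 16 libraries, whose gene lies inside that of Sox2ot on the same strand. Of 404 protein-coding genes wholly inside another gene on the same strand 403 (99.8%) were at 0 in every library, against 20.6% of 678 genes inside a gene on the opposite strand only and 21.2% of 10424 genes with no overlap. In the neural list Sox1 and Tubb3 also had a mean input level of 0, and whether their UMIs went uncounted was not tested. Of the lincRNA genes described here 15 had over 10% of their length under another gene on the same strand (Gm26624 42.6% and at most 99.8%, for 1300002E11Rik), and UMIs of such stretches may be missing from their counts, which was not tested. Replicates differed most within fRIP, where the replicate 4 input and the replicate 5 IP stood apart from the other libraries of their groups. The chi-square per degree of freedom between replicates reached 51.9 in the fRIP inputs and 60.0 in the fRIP IPs, and at most 3.41 and 8.33 in the UV-RIP inputs and IPs.

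The 133 members had a median of 308 UMIs per input library (22.8 CPM) and a range of 101 to 9971. The 5 with the highest mean input level held 36.6% of the members' input UMIs. They were Lncenc1 with 734 CPM, which has been linked to the glycolysis of naive stem cells, Pvt1 with 454 CPM, a neighbour of the Myc oncogene, AU020206 with 358 CPM, Gm37245 with 310 CPM and Gm26624 with 299 CPM. Just inside the threshold lay Gm4425 (106 UMIs), Gm13483 (102) and Lockd (101), and just outside it Gm31659 (99.0), D7Ertd128e (97.3) and Gm26668 (92.0). By symbol 69 members were Gm gene models and 37 were Rik cDNAs, and 27 had another name. The fewest UMIs of any member in any library were 13, so every member passed the filter of 3 UMIs in at least 1 library.

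The members' share of all UMIs rose from input to IP in fRIP and fell in UV-RIP. They held 0.475% to 0.544% of the UMIs in the fRIP inputs and 0.556% to 0.695% in the fRIP IPs, without overlap. In UV-RIP they held 0.664% to 0.684% in the inputs and 0.564% to 0.616% in the IPs, again without overlap and in the other direction. A pair of genes, Gm26917 and Gm42418, moved with this result, since Gm26917 alone took 18.4% to 22.3% of the UMIs of the UV-RIP IPs and 12.03% to 12.29% of the UV-RIP inputs. With that pair left out of the totals the members' shares were 0.772% to 0.796% in the UV-RIP inputs and 0.742% to 0.784% in the UV-RIP IPs, which overlapped, and 0.522% to 0.587% in the fRIP inputs against 0.649% to 0.750% in the fRIP IPs, which did not.

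**Figure D1:**
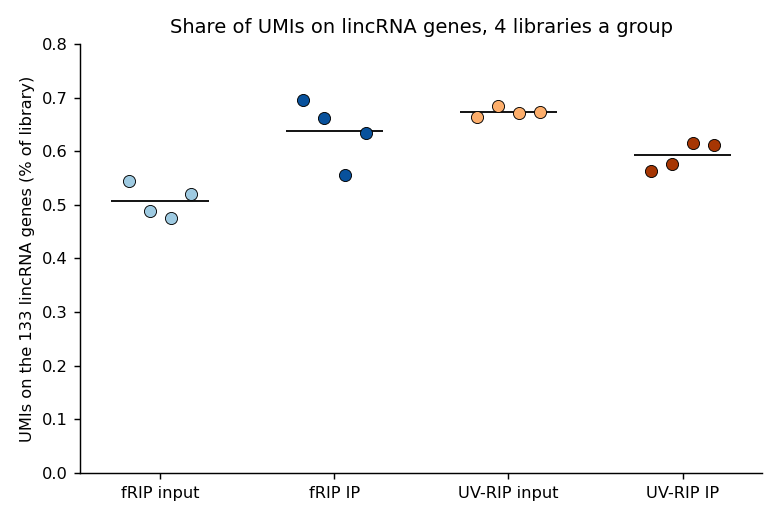
Share of each library's UMIs on the 133 lincRNA genes (y axis, percent), with 1 point for each of the 4 libraries of a group and a bar at the group mean. The fRIP IPs lie above the fRIP inputs, and the UV-RIP IPs lie below the UV-RIP inputs.

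In fRIP, lincRNAs were enriched more often than depleted. By edgeR's quasi-likelihood test with a fold above 1.5 and an adjusted p below 0.05, 30 of 133 members (22.6%) were enriched in the IP, beside 8.8% of all 22936 genes tested, and 7 (5.26%) were depleted, beside 10.7%. The median log2 fold change was 0.28 over the members, -0.03 over all genes tested and -0.10 over 9627 protein-coding genes with as many input UMIs. Over 68 expressed antisense noncoding genes it was 0.49, and 28 of those were enriched. All 30 enriched members were higher in the IP in 4 of 4 pairs and had 4 IP libraries above the 4 inputs. The calls were made from these same pairs. Of all members 72 were higher in the IP in every pair and 29 lower in every pair, which was not counted over all genes.

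**Figure D2:**
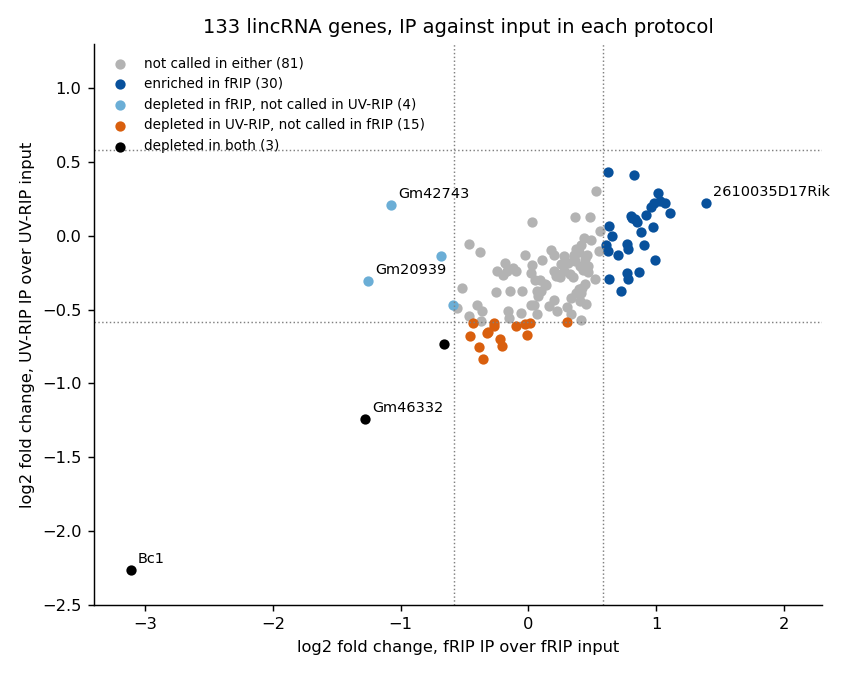
Log2 fold change of IP over input in fRIP (x axis) and in UV-RIP (y axis) for 133 lincRNA genes, with dotted lines at a fold of 1.5 and colours by call. Bc1 and Gm46332 lie far down in both protocols, and the 30 genes enriched in fRIP lie between the dotted lines in UV-RIP.

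The gene with the largest fRIP enrichment was 2610035D17Rik (ENSMUSG00000087259.7, chr11:113043895-113201838, minus strand, GRCm38), a gene of 157944 bases with 5 exon blocks over 1.34% of its length and no overlapping gene. The nearest protein-coding start, that of Sstr2, is 417504 bases away. Its level was 82.9, 50.2, 72.1 and 91.7 CPM in the fRIP inputs of replicates 3, 4, 5 and 6 and 195, 169, 181 and 221 CPM in the fRIP IPs, the order used for all values that follow. In UV-RIP it was 96.8, 97.8, 113 and 99.1 CPM in the inputs and 104, 109, 136 and 126 CPM in the IPs. The fRIP IPs stood above every other library, whereas the UV-RIP IPs and inputs overlapped. The log2 fold change was 1.39 ± 0.09 (SE, n = 4 pairs, edgeR adjusted p 3.79e-11) in fRIP and 0.22 ± 0.04 (adjusted p 1.66e-06) in UV-RIP, below the fold threshold.

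Platr22 (ENSMUSG00000097448.1, chr1:136696211-136726142, plus strand) belongs to the Platr genes, pluripotency-associated transcripts. It was the 1 of 11 pluripotency-associated members that was enriched in fRIP. Its level was 51.2, 48.1, 42.98 and 44.7 CPM in the fRIP inputs and 98.2, 86.4, 83.2 and 73.6 CPM in the fRIP IPs. The UV-RIP inputs held 86.2, 89.6, 90.5 and 89.4 CPM and the UV-RIP IPs 71.2, 74.7, 76.4 and 77.4 CPM. The IPs lay above the inputs in fRIP and below them in UV-RIP, without overlap. The UV-RIP direction is by total UMIs, under which the median log2 fold change over all genes tested was -0.17. The log2 fold changes were 0.87 ± 0.08 in fRIP (adjusted p 7.75e-09) and -0.25 ± 0.05 in UV-RIP (adjusted p 2.95e-07).

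The promoters of these 2 fRIP-enriched genes are shown because Sox2 is known as a DNA-binding factor whose HMG box prefers CATTGT-like and CTTTGT-like letters. The sequences are from RefSeq (GRCm38.p6) and run from 250 bases before to 50 bases after the annotated start, 5′ to 3′ on the gene's strand. Capitals mark CATTGT or CTTTGT on either strand (reverse complements ACAATG and ACAAAG), with no overlapping matches. 2610035D17Rik is at chr11:113201789-113202088 (minus strand) and Platr22 at chr1:136695961-136696260 (plus strand).
2610035D17Rik: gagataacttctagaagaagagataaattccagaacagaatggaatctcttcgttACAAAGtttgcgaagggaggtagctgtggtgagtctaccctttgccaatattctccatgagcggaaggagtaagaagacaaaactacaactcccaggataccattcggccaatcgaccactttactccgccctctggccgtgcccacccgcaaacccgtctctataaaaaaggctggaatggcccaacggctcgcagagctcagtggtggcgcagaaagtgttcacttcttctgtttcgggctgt
Platr22: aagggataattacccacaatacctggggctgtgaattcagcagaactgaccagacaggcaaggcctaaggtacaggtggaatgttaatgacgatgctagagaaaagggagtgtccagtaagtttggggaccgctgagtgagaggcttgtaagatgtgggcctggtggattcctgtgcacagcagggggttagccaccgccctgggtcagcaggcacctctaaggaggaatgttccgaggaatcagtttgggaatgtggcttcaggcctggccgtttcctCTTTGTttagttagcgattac
Each sequence holds 1 match. At least 1 of the motifs occurred in 28.6% of all 32851 promoters of that length in the table, in 4 of 17 promoters of fRIP-enriched members (23.5%) and in 9 of 55 promoters of other members (16.4%). Promoters of 72 of the 133 members were matched by symbol. These are letter matches only.

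For the other genes among the 8 with the largest fRIP enrichment no role is given here. They were Gm805 (1.11 in fRIP and 0.16 in UV-RIP, log2 fold change), Gm14005 (1.07 and 0.22), Gm20610, Gm5535, 2410152P15Rik (0.99 and -0.17), Gm13067 (0.98 and 0.22) and Gm35281 (0.98 and 0.06). Gm5535 (chr2:144098815-144207990, minus strand) held 58.1, 49.7, 54.6 and 54.2 CPM in the fRIP inputs and 120.3, 113, 106 and 99.7 CPM in the IPs. In UV-RIP it held 99.6, 104, 86.9 and 97.8 CPM in the inputs and 121, 119, 111 and 122 CPM in the IPs. Its IPs lay above its inputs in both protocols, without overlap. The changes were 1.02 ± 0.08 in fRIP (adjusted p 8.74e-10) and 0.29 ± 0.04 in UV-RIP (adjusted p 2.28e-10), the latter under the fold threshold.

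Gm20610 (chr10:61046422-61051900, minus strand) is shorter, with 5479 bases. Its level was 10.1, 11.5, 11.9 and 8.81 CPM in the fRIP inputs and 21.5, 23.005, 23.01 and 18.5 CPM in the IPs, and 6.58, 6.81, 7.65 and 7.88 CPM against 7.24, 10.1, 7.18 and 9.61 CPM in UV-RIP. The fRIP groups did not overlap, and the UV-RIP groups did. Its log2 fold change was 1.03 ± 0.10 in fRIP (adjusted p 9.14e-09) and 0.23 ± 0.10 in UV-RIP (adjusted p 0.0543).

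The list of broadly expressed lincRNAs with a known role had 7 members, of which 3 were enriched in fRIP, none was depleted, and none was called in UV-RIP, beside 22.6% of all members enriched in fRIP and 13.5% depleted in UV-RIP (8.8% and 5.53% of all genes). Pvt1 (ENSMUSG00000097039.8, chr15:62037986-62378096, plus strand) starts 52595 bases from the start of Myc and is known to affect Myc levels. It held 476, 375, 413 and 430.2 CPM in the fRIP inputs and 883, 850.2, 699 and 773 CPM in the fRIP IPs, a log2 fold change of 0.92 ± 0.08 (adjusted p 2.11e-09). In UV-RIP it held 466, 493, 501 and 475 CPM in the inputs and 493, 528, 583 and 536 CPM in the IPs, a change of 0.14 ± 0.04 (adjusted p 4.86e-04). Pvt1 was thus higher in the IP in 4 of 4 pairs of each protocol, and its groups overlapped in UV-RIP but not in fRIP.

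Lncpint, a transcript induced by p53, and Trp53cor1, the lincRNA-p21 gene 11797 bases from the start of the cell cycle inhibitor Cdkn1a, were the other enriched members of that list. Lncpint held 24.4, 17.01, 20.9 and 26.6 CPM in the fRIP inputs and 42.1, 39.7, 34.1 and 43.3 CPM in the IPs, and rose by 0.85 ± 0.10 on the log2 scale (adjusted p 1.24e-07). Trp53cor1 held 23.3, 11.7, 18.2 and 19.8 CPM in the inputs and 34.7, 32.6, 30.8 and 29.9 CPM in the IPs, and rose by 0.84 ± 0.12 (adjusted p 2.22e-06). For both genes no IP overlapped the inputs, and the replicate 4 input was the lowest of the 4. In UV-RIP their log2 fold changes were 0.09 ± 0.06 and 0.11 ± 0.06, with adjusted p 0.236 and 0.139.

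The other 4 members of the list were called in neither protocol, and their log2 fold changes are given for fRIP and then UV-RIP. 2900097C17Rik, the mouse Norad gene, whose RNA binds Pumilio proteins, had -0.47 ± 0.10 and -0.05 ± 0.07. 1700020I14Rik, the Oip5os1 or Cyrano gene, whose RNA directs the decay of miR-7, had -0.52 ± 0.08 and -0.36 ± 0.05. Lockd, which starts 8691 bases from the cell cycle inhibitor gene Cdkn1b, had 0.30 ± 0.11 and -0.48 ± 0.12, and Epb41l4aos had -0.14 ± 0.14 and -0.37 ± 0.08. The fRIP log2 ratios of Epb41l4aos in replicates 3 to 6 were -0.06, -0.89, 0.12 and 0.36.

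Depletion in fRIP was rarer and included the largest change of any member. Bc1 (ENSMUSG00000115783.1, chr7:144914470-144914637, plus strand) is a short RNA made by RNA polymerase III that is known from neurons, where it represses translation. At 168 bases it was the shortest member and a single exon. Its sequence, from the GENCODE vM21 transcripts (GRCm38), is shown because its form sets it apart from the long spliced members. Capitals mark its longest run of A, 23 bases from position 77 to 99 counted from the 5′ end.
Bc1: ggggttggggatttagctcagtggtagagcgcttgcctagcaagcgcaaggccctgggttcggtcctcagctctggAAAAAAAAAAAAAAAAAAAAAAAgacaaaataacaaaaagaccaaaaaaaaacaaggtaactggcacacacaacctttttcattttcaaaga
Bc1 held 13.2, 219.8, 20.9 and 12.8 CPM in the fRIP inputs and 2.37, 3.02, 8.34 and 2.99 CPM in the fRIP IPs. In UV-RIP it held 8.75, 8.41, 7.72 and 7.74 CPM in the inputs and 0.914, 1.97, 2.62 and 1.22 CPM in the IPs. All IPs lay below all inputs within each protocol, and the replicate 4 fRIP input, with 3126 UMIs, was far above the other 3, which had 203, 289 and 174. The log2 fold change was -3.11 ± 0.45 in fRIP (adjusted p 3.97e-06), or -1.79 ± 0.11 without replicate 4 (adjusted p 3.07e-55) and -4.03 ± 0.56 without replicate 5 (adjusted p 7.29e-05), and -2.26 ± 0.14 in UV-RIP (adjusted p 3.26e-57). It was called depleted in fRIP whichever replicate was left out.

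Gm46332 (chr12:4552546-4569538, minus strand) was depleted in both protocols. It held 10.01, 14.4, 12.95 and 9.69 CPM in the fRIP inputs and 4.40, 4.91, 5.66 and 4.37 CPM in the IPs, and 10.5, 9.13, 9.24 and 10.1 CPM against 3.94, 3.66, 4.38 and 4.40 CPM in UV-RIP. No IP library of either protocol reached the lowest input. The log2 fold changes were -1.28 ± 0.12 (adjusted p 7.40e-09) and -1.24 ± 0.11 (adjusted p 3.10e-28), and their difference was -0.03 ± 0.16 (adjusted p 0.917).

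Gm20939, a gene on chromosome 17, was depleted in fRIP with a smaller change in UV-RIP. It held 32.8, 27.6, 25.8 and 32.7 CPM in the fRIP inputs and 16.7, 15.3, 6.55 and 12.9 CPM in the IPs, against 34.4, 37.8, 33.6 and 34.6 CPM and 30.2, 27.1, 26.6 and 29.5 CPM in UV-RIP. The groups did not overlap in either protocol. The log2 fold changes were -1.26 ± 0.13 (adjusted p 2.59e-08) and -0.31 ± 0.06 (adjusted p 8.25e-07), and their difference was -0.94 ± 0.15 (adjusted p 4.10e-05). The replicate 5 fRIP IP was the lowest. The fRIP change ran from -1.37 without replicate 4 to -1.05 without replicate 5, and the difference from -1.11 to -0.75.

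Gm42743 (chr3:96269721-96279001, plus strand) starts 31 bases from the start of the histone gene Hist2h2bb. It held 10.01, 42.6, 13.97 and 15.2 CPM in the fRIP inputs and 6.32, 7.88, 9.99 and 10.3 CPM in the IPs, and 5.30, 5.12, 4.47 and 3.98 CPM against 5.98, 6.37, 4.87 and 4.57 CPM in UV-RIP. The replicate 4 fRIP input again stood apart, and the groups overlapped in both protocols. Its fRIP change was -1.08 ± 0.20 (adjusted p 1.21e-04) and -0.56 ± 0.10 without replicate 4 (adjusted p 2.85e-07), which is inside the fold threshold. The other depleted members were Gm26561 (-0.68), Gm26573 (-0.66) and Gm26858 (-0.59). Without replicate 4, Gm26561 had -0.53 and Gm26858 -0.56, and 4 of the 7 depletion calls remained.

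**Figure D3:**
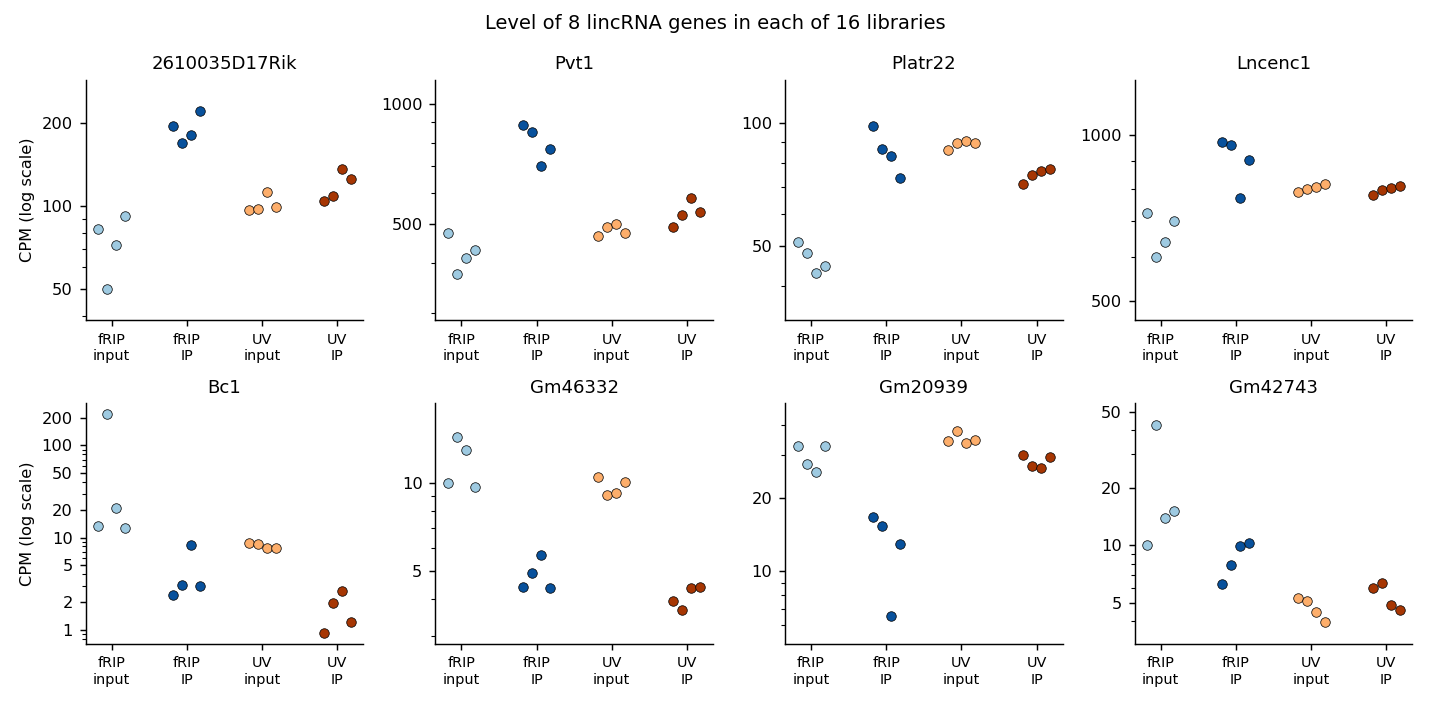
Level in CPM (y axis, log scale) of 8 lincRNA genes in each of 16 libraries, with 1 point per library and the replicates 3 to 6 from left to right within a group. The upper 4 genes have fRIP IPs above their fRIP inputs, and in the lower row the replicate 4 fRIP input stands high for Bc1 (219.8 CPM) and Gm42743 (42.6 CPM).

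In UV-RIP none of the 133 members was enriched by edgeR's test, beside 0.68% of all genes, and 18 (13.5%) were depleted, beside 5.53%. With no fold threshold 9 members were higher and 83 lower in the IP at an adjusted p below 0.05, beside 6.6% and 29.0% of all genes. The median log2 fold change was -0.25 over the members and -0.17 over all genes tested. The counts moved with the scaling. With edgeR's TMM factors the median over all genes was 0.01 and over the members -0.08, 2 members were enriched and 3 depleted, and the calls over all genes went from 156 higher and 1268 lower to 505 higher and 425 lower. Relative to the median of all genes the members' median was thus slightly lower under both scalings. With TMM the depletion calls of all other members, those named in what follows included, were lost. The 3 genes depleted under both scalings were Bc1 (-2.08 with TMM), Gm46332 (-1.06) and Gm47469 (-0.65). The 2 genes enriched with TMM were Gm26829 (0.61) and 4930461G14Rik (0.59), which had 0.43 and 0.41 with total UMIs and are named after their values were seen.

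The 8 members with the largest UV-RIP depletion were Bc1, Gm46332, Gm47469 (-0.83), Platr3, C330004P14Rik (-0.75), Gm26573 (-0.73), B830012L14Rik and EU599041 (-0.68). Platr3 (chr2:135648907-135652063, plus strand), a pluripotency-associated transcript, held 42.7, 44.1, 45.1 and 46.7 CPM in the UV-RIP inputs and 24.4, 24.96, 27.4 and 29.3 CPM in the IPs. In fRIP it held 32.8, 39.5, 26.6 and 29.1 CPM in the inputs and 28.3, 26.9, 18.999 and 23.7 CPM in the IPs. The UV-RIP groups were apart, and the fRIP groups overlapped. Its log2 fold change was -0.75 ± 0.06 in UV-RIP (adjusted p 2.07e-38) and -0.39 ± 0.09 in fRIP (adjusted p 0.00106). B830012L14Rik (chr12:109695586-109702587, plus strand) starts 95256 bases from Rtl1, an imprinted gene, and had -0.70 ± 0.12 in UV-RIP and -0.22 ± 0.11 in fRIP.

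The fRIP and UV-RIP fits share no library, and 3 members were depleted in both (Bc1, Gm46332 and Gm26573), which is 3 of the 7 fRIP calls and 3 of the 18 UV-RIP calls. Over all genes tested 540 were depleted in both, 22.1% of the fRIP calls and 42.6% of the UV-RIP calls, and 102 were enriched in both, 5.05% and 65.4%, while no member was enriched in UV-RIP. The test of the difference itself, the interaction of crosslinker and pull-down over all 16 libraries, called 55 members (41.4%) with a higher IP to input ratio in fRIP, beside 7.87% of all genes, and 2 (1.504%) with a higher ratio in UV-RIP, beside 2.69%. The median difference was 0.50 over the members and 0.15 over all genes. Among the 68 antisense genes 36 (52.9%) were called towards fRIP and 0 towards UV-RIP, with a median of 0.59. With TMM factors the median difference was 0.38 over the members and 0.03 over all genes, 38 and 2 members were called, and the calls over all genes went from 1806 towards fRIP and 616 towards UV-RIP to 1017 and 1123. The difference fit uses the libraries of both other fits, so its counts are not separate evidence.

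The 5 largest differences towards fRIP, as log2 values with their SE, were those of 2610035D17Rik (1.17 ± 0.10, adjusted p 1.43e-08), 2410152P15Rik (1.16 ± 0.15, adjusted p 2.11e-06), Platr22 (1.11 ± 0.09, adjusted p 4.11e-09), Gm14221 (1.10 ± 0.09, adjusted p 1.28e-08) and Gm26510 (1.07 ± 0.10, adjusted p 2.94e-08). Gm14221 (chr2:160568379-160619971, minus strand) starts 25917 bases from Top1, the DNA topoisomerase gene. It held 29.4, 23.3, 20.8 and 21.4 CPM in the fRIP inputs and 45.2, 38.8, 36.7 and 35.7 CPM in the fRIP IPs, and 57.1, 61.6, 52.5 and 51.6 CPM against 45.2, 47.9, 39.7 and 38.9 CPM in UV-RIP. Every fRIP input lay below every UV-RIP input. The 2 differences towards UV-RIP were those of Gm42743 (-1.30 ± 0.31, or -0.72 ± 0.17 without replicate 4) and Gm20939 (-0.94 ± 0.15, or -0.75 ± 0.14 without replicate 5).

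Many lincRNAs were at a lower level in the fRIP inputs than in the UV-RIP inputs. Between fRIP input and UV-RIP input 57 members (42.9%) were higher in UV-RIP input, beside 9.44% of all genes, and 6 (4.51%) were higher in fRIP input, beside 10.6%. The median log2 fold change of fRIP over UV-RIP input was -0.51 over the members, 0.03 over all genes and 0.08 over protein-coding genes. Among the 68 antisense genes 40 (58.8%) were higher in UV-RIP input and 1 in fRIP input, with a median of -0.69. The rule that chose the members used these levels. As a description made after the data were seen, of the 133 members 14 reached a mean of 100 UMIs in the UV-RIP inputs only and so had to be lower in fRIP, which holds for 12 of the 57 called, and 5 reached it in the fRIP inputs only. The ratios of IP to input of these genes rest in part on the input values that chose them. When 157 lincRNA genes were chosen by their mean UMIs in the IP libraries instead, 70 (44.6%) were higher in UV-RIP input and 5 in fRIP input. That choice, which uses the IP levels, gave 45 (28.7%) enriched and 5 depleted in fRIP, 0 and 16 (10.2%) in UV-RIP, and 66 (42.04%) and 2 that differed towards fRIP and UV-RIP. For 90 members the 4 fRIP inputs lay below the 4 UV-RIP inputs, and for 10 they lay above, which was not counted over all genes. After the input difference was seen the IP libraries were compared in the same way. Between the IPs 13 members (9.77%) were higher in fRIP, beside 11.2% of all genes, and 14 (10.5%) were higher in UV-RIP, beside 4.8%, with a median of -0.004 over the members and 0.18 over all genes. With TMM factors these were 6 and 21 members, with medians of -0.16 and 0.03, and the calls over all genes went from 2561 and 1101 to 1520 and 1678. Of the 55 members with a higher IP to input ratio in fRIP, 32 were called higher in UV-RIP input. Between the IPs 8 of the 55 were called higher in fRIP and 4 higher in UV-RIP, and 15 were called in neither comparison. The difference contains these input and IP levels, so the counts are not separate evidence. Crosslinker and plates cannot be told apart in either comparison.

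**Figure D4:**
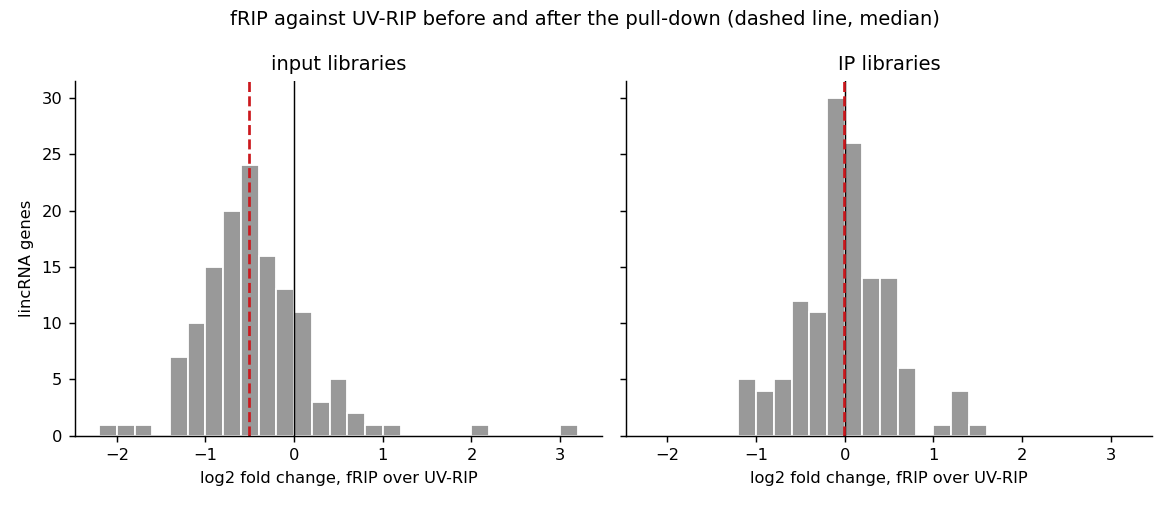
Number of lincRNA genes (y axis) by log2 fold change of fRIP over UV-RIP (x axis, 133 genes in each panel), for the 8 input libraries (left) and the 8 IP libraries (right). The median lies at -0.51 in the inputs and at -0.004 in the IPs.

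The largest input differences towards UV-RIP were those of Gm41031, Gm46392 (-1.95), Gm47599 (-1.62), Gm15834 (-1.39) and Gm48023 (-1.38), all among the 14 that reached the threshold in the UV-RIP inputs only. Gm41031 (chr13:97796162-97825885, minus strand) held 5.01, 4.36, 4.05 and 6.09 CPM in the fRIP inputs and 19.7, 19.3, 21.5 and 21.5 CPM in the UV-RIP inputs, a log2 fold change of -2.07 ± 0.12 (SE). Its IPs held 5.75, 6.32, 4.38 and 7.75 CPM in fRIP and 14.6, 12.003, 13.3 and 14.7 CPM in UV-RIP, a change of -1.18 ± 0.13 (SE). Neither the inputs nor the IPs of the protocols overlapped. Gm15834 starts 39 bases from Orc2, which encodes a subunit of the origin recognition complex, head to head with it.

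The 5 largest of the 6 input differences towards fRIP were those of Bc1 (3.03 ± 0.75, or 0.95 ± 0.14 without replicate 4), Gm42743 (2.12 ± 0.36, or 1.51 ± 0.15), 2900097C17Rik, Tmem250-ps (0.81 ± 0.11) and B830012L14Rik (0.78 ± 0.18). Gm42743 and B830012L14Rik reached the membership threshold in the fRIP inputs only, so their input differences rest on values that chose them. The Norad gene 2900097C17Rik (chr2:156388065-156392979, minus strand), a single exon of 4915 bases, held 37.8, 47.8, 35.4 and 31.99 CPM in the fRIP inputs and 18.5, 16.97, 18.3 and 17.7 CPM in the UV-RIP inputs, a change of 1.10 ± 0.11 (SE). Its IPs held 27.5, 26.02, 28.1 and 28.3 CPM in fRIP and 16.4, 16.6, 18.2 and 17.6 CPM in UV-RIP. Every fRIP library lay above every UV-RIP library.

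The 11 pluripotency-associated members were the Platr genes 3, 4, 6, 7, 10, 20, 22, 26, 27 and 28 and Lncenc1. In fRIP 1 was enriched and none depleted, with a median log2 fold change of 0.20. In UV-RIP none was enriched and 2 were depleted (Platr3 and Platr27, neither past the fold threshold with TMM), with a median of -0.44, and 3 passed the test of the difference, all towards fRIP (Platr22, Platr4 and Platr6). Of the 55 difference calls towards fRIP over all members 38 were kept with TMM, and Platr6 (0.64) lay near the threshold of 0.585. In the inputs 6 of the 11 were higher in UV-RIP and none in fRIP, with a median of -0.71, beside 42.9% of all members and 9.44% of all genes. Of these 6 Platr27 reached the membership threshold in the UV-RIP inputs only, so its input difference and in part its UV-RIP depletion rest on values that chose it. Of all members 22.6% were enriched in fRIP, 13.5% were depleted in UV-RIP and 41.4% differed towards fRIP. The log2 fold changes in fRIP were -0.46 for Platr10, -0.40 for Platr7, -0.39 for Platr3, -0.33 for Platr27, 0.20 for Platr6, 0.20 for Platr26, 0.22 for Platr28 and 0.23 for Platr4.

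Lncenc1 (ENSMUSG00000078952.9, chr13:97434970-97497007, plus strand), the most abundant member, held 723, 599.8, 641 and 699 CPM in the fRIP inputs and 971, 962, 768 and 903 CPM in the fRIP IPs. In UV-RIP it held 789, 800.5, 806 and 814 CPM in the inputs and 778, 796, 803 and 808 CPM in the IPs. The fRIP IPs all lay above the fRIP inputs, whereas in UV-RIP each IP lay slightly below its own input. The UV-RIP direction is by total UMIs, under which the median over all genes was -0.17, against 0.01 with TMM factors. A change this small may depend on that choice. The log2 fold change was 0.43 ± 0.08 in fRIP (adjusted p 5.31e-05), under the fold threshold, and -0.01 ± 0.04 in UV-RIP (adjusted p 0.878). Platr20 had 0.53 ± 0.08 in fRIP and 0.30 ± 0.05 in UV-RIP, neither past the fold threshold. Platr10, with inputs of 59.95 to 78.1 CPM in fRIP and 63.5 to 71.5 CPM in UV-RIP, had -0.46 ± 0.08 and -0.54 ± 0.05.

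The list of microRNA host genes had only 3 members, too few for a share to be read against the 13.5% of members and 5.53% of genes depleted in UV-RIP. Mir17hg was depleted in UV-RIP, and none was called in fRIP. Mir17hg (ENSMUSG00000089726.2, chr14:115042879-115046727, plus strand) is the precursor of the miR-17-92 cluster, which promotes proliferation, and 11 mature microRNAs lie within it. Those of 2 seed families are shown, from RefSeq (GRCm38.p6), as what the counted transcript contains. Capitals mark the seed (bases 2 to 8), which miR-17-5p shares with miR-20a-5p and miR-19a-3p with miR-19b-3p.
mmu-miR-17-5p: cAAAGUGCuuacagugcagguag
mmu-miR-20a-5p: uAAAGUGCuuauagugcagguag
mmu-miR-19a-3p: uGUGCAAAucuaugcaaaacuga
mmu-miR-19b-3p: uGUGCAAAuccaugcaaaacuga
The UMIs are of the long precursor, not of these microRNAs. Mir17hg held 53.1, 52.9, 55.9 and 55.7 CPM in the UV-RIP inputs and 33.7, 36.1, 36.4 and 32.5 CPM in the UV-RIP IPs, a log2 fold change of -0.65 ± 0.05 (adjusted p 1.38e-33), or -0.47 with TMM factors, inside the fold threshold. In fRIP it held 28.6, 31.8, 20.5 and 23.1 CPM in the inputs and 22.3, 22.8, 16.4 and 21.7 CPM in the IPs, with -0.31 ± 0.09 (adjusted p 0.00796). Its UV-RIP groups were apart, its fRIP groups overlapped, and its fRIP inputs all lay below its UV-RIP inputs (-1.06 ± 0.11).

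Mir142hg, the host of miR-142, a microRNA of blood cells, had values of -0.16 ± 0.09 (fRIP) and -0.51 ± 0.06 (UV-RIP) on the log2 scale, called in neither. Mir124a-1hg, a host of the neuronal miR-124, had 0.44 ± 0.11 and -0.32 ± 0.08, and the difference passed the test (0.77 ± 0.14, adjusted p 1.10e-04). The 1 X-linked member was Ftx, a gene of the X inactivation centre, with -0.15 ± 0.11 and -0.56 ± 0.10. Bvht, the Braveheart gene known from heart development, was the 1 developmental member and had 0.14 ± 0.10 and -0.33 ± 0.09. No gene of the imprinted list was a member.

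Members with longer genes and a smaller exonic share tended to higher fRIP ratios. The gene length of the members ran from 168 to 871504 bases with a median of 18083, and exons covered a median of 8.86% of it. Across the 133 members Spearman's rho of the fRIP log2 fold change was 0.38 with gene length and -0.43 with the exonic share, and across the 9627 protein-coding genes it was 0.60 and -0.52. In UV-RIP it was 0.21 and -0.22 across the members. These are descriptions across genes, which share libraries and are not replicates. Of the 44 shortest members (up to 10843 bases) 5 were enriched and 3 depleted in fRIP, and of the 45 longest (from 36188 bases) 16 were enriched and 2 depleted, beside 22.6% and 5.26% of all members and 8.8% and 10.7% of all genes. The medians were 0.02 and 0.41, and in UV-RIP -0.35 and -0.20. By exons, 28 of 95 members with under 20% exonic length were enriched in fRIP (median 0.37), against 1 of 10 with 50% or more (median -0.29). Since UMIs were counted over gene bodies with introns, spliced and unspliced RNA of a gene cannot be told apart.

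**Figure D5:**
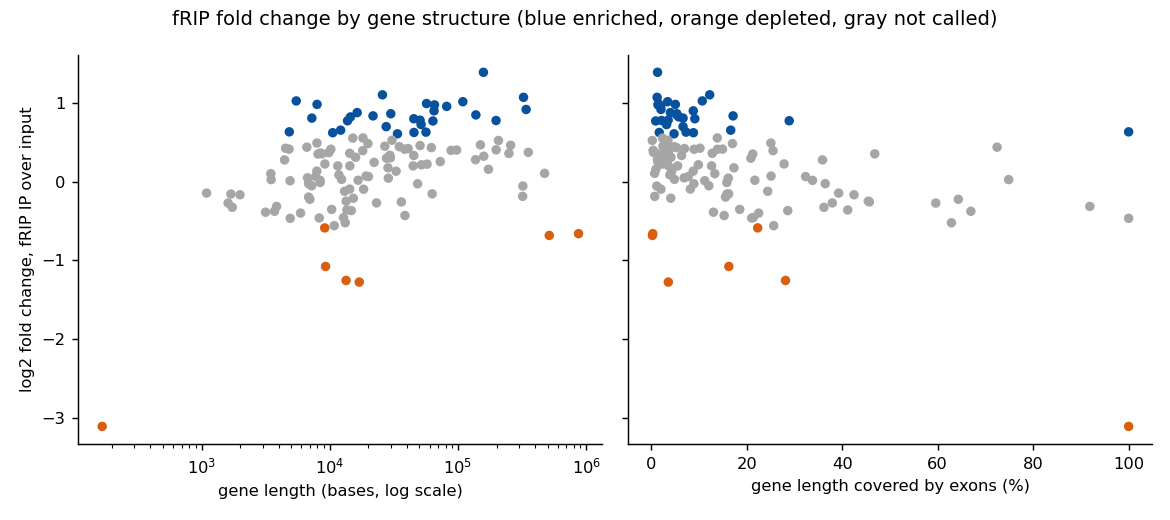
Log2 fold change in fRIP (y axis) of 133 lincRNA genes by gene length in bases (left, log scale) and by the percent of the gene covered by exons (right). Enriched genes (blue) are mostly of low exonic share, and the 168-base gene Bc1 lies at the bottom left of the length panel.

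With the length trend over all genes removed from the log2 fold changes, 27 members were enriched and 6 depleted in fRIP, of which 24 and 6 were among the calls above. Pvt1 then had 0.50, Lncpint 0.55 and Gm46392 0.41, each under the fold threshold. In UV-RIP 1 was then enriched and 5 were depleted, and 28 members differed towards fRIP in place of 55. Over all genes tested the same step gave 1421 (6.2%) enriched and 2166 (9.44%) depleted in fRIP, 312 (1.36%) and 586 (2.55%) in UV-RIP, and 657 (2.86%) that differed towards fRIP and 855 (3.73%) towards UV-RIP.

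The counts by position are read against the same shares, 22.6% of members and 8.8% of genes enriched in fRIP. In fRIP 5.26% of members and 10.7% of genes were depleted, and in UV-RIP 13.5% and 5.53%. The starts of 9 members lay head to head within 1 kb of a protein-coding start, and none of these was called in fRIP or UV-RIP (medians 0.28 and -0.16). Of 50 members over 50 kb from any protein-coding start 17 were enriched in fRIP (median 0.41). Of 60 members with no overlapping gene 12 were enriched, and of 14 with over 50% of their length under another gene 2 were. In UV-RIP, by total UMIs, 15 of the 60 and 0 of the 14 were depleted. For 91 members whose nearest protein-coding gene had 100 or more input UMIs, rho between the fold change of the lincRNA and that of its neighbour was -0.07 in fRIP and 0.17 in UV-RIP.

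Neighbouring lincRNAs did not always move together. There were 10 loci with 2 or 3 members within 100 kb of each other. Gm26510 (chr17:70874349-70924996, minus strand) was enriched in fRIP with 0.78 ± 0.09, and Gm26561, which overlaps it on the plus strand, was depleted with -0.68 ± 0.14. Gm26561 is a model of 515207 bases with 86.5% of its length under other genes, 50.2% on its own strand. On chromosome 1 Platr22 was enriched in fRIP (0.87), and Gm19705 nearby on the same strand had 0.07. On chromosome 13 Gm47469 and Gm46430 were both depleted in UV-RIP (-0.83 and -0.59, the latter not with TMM), and E430024I08Rik beside them had -0.47. Gm19705, Gm46430 and E430024I08Rik are named after their values were seen.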

How the data were processed

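Gene counts were deposited by the authors as UMI counts per gene in 16 libraries. The authors mapped reads with STAR to the mouse genome (mm10), discarded reads without a unique position and counted UMIs over gene bodies (GENCODE vM16) with featureCounts. Versions and the strand setting are not given in the sources used here. Groups came from the labels, and gene types and coordinates from GENCODE vM21 (GRCm38), matched for 122 members by identifier and version and for 11 by identifier only, for which no coordinates are given.

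The 22936 genes that reached 3 UMIs in some library were tested with edgeR 4.0.16 (R 4.3.3, quasi-likelihood, total UMIs as library size, Benjamini-Hochberg over all genes), with replicate as a block for IP against input, plate for the difference between protocols and no block between inputs or IPs. Calls needed a fold above 1.5 and an adjusted p below 0.05. IP and input of a number share a lysate, and their deviations from the group means correlated at 0.114 to 0.601 in fRIP and 0.0286 to 0.441 in UV-RIP over 10208 genes. P-values and the SE printed with them come from edgeR's fit, which moderates the spread between these libraries over all genes. They are not the spread of a gene's own pairs alone. Totals were 12456298 to 21211537 UMIs, and CPM are UMIs scaled to totals of 1000000. The tests were also run on simulated counts with a fixed dispersion and no replicate or plate effect. That does not cover replicate differences such as those seen in fRIP. Alternatives were DESeq2 1.42.0, other scalings, filters, membership thresholds, a length trend and leaving out each replicate.

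The members and lists were chosen with earlier results of these data known. Named genes were the members on the lists, up to 8 with the largest called enrichment and up to 8 with the largest depletion in each protocol, up to 5 in each direction of the difference and of the inputs, the 5 highest in input, and those beside the threshold.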

Additional observations from a re-analysis of the deposited data

Results flagged for a closer look

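Among the named genes 89 groups of 4 values were examined for 1 value far from the other 3, and 8 (8.99%) had one, where chance gives about 5%. As the gap to the nearest value over the whole range, the fRIP IP to input ratio of replicate 4 stood apart for Gm805 (0.927), Lncpint (0.849), Gm26510 (0.854), Gm42743 (0.907) and Gm46332 (0.884), and that of replicate 6 for Gm14005 (0.918). The fRIP input level of replicate 4 stood apart for Gm42743 (0.841) and Bc1 (0.961). Over all 133 members the replicate 4 ratio was the highest of the 4 fRIP ratios in 82 and the replicate 5 ratio the lowest in 70.

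For 24 named genes the IP to input ratio differed between fRIP and UV-RIP by edgeR's test of the interaction (adjusted p below 0.05, fold above 1.5). The log2 difference, fRIP minus UV-RIP, was positive in 22. Over all genes 7.87% were called towards fRIP and 2.69% towards UV-RIP, and since some genes were named for a large difference, the naming rule sets part of this split. Gm41031, Gm46392 and Gm4425 reached the membership threshold in the UV-RIP inputs only, and Gm20610, Lockd and Gm42743 in the fRIP inputs only, so their differences rest in part on input values that the rule used. The largest were 2610035D17Rik (1.17), 2410152P15Rik (1.16), Platr22 (1.11), Gm14221 (1.10), Gm26510 (1.07), Gm805 (0.94), Gm35281 (0.92), Gm41031 (0.89), Gm46392 (0.86), Gm14005 (0.85) and Gm20610 (0.80). Those that followed were Lockd (0.78), Pvt1 (0.78), Gm4425 (0.78), Mir124a-1hg (0.77), Lncpint (0.76), Gm13067 (0.76), Platr4 (0.74), Gm5535 (0.73), Trp53cor1 (0.72), Platr6 (0.64) and Gm37245 (0.59). It was negative in Gm20939 (-0.94) and Gm42743 (-1.30), and without replicate 4 that of Gm42743 was -0.72.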

How the results depend on the processing

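No called value changed sign under any alternative, and of the single-gene values under alternatives 92 lost the threshold and 1195 stayed on their side of it. Without replicate 4 the uncalled difference between protocols went from -0.94 to 0.54 for Bc1 and from -0.03 to 0.04 for Gm46332. With DESeq2's median of ratios 4 members were depleted in fRIP, 1 was enriched and 3 were depleted in UV-RIP, 34 differed towards fRIP, and between the IPs 5 were higher in fRIP and 24 in UV-RIP. Over all genes that scaling gave 288 enriched and 235 depleted in UV-RIP, 587 and 1012 that differed towards fRIP and UV-RIP, and between the IPs 1261 and 1504. With TMM 2 were enriched and 3 depleted in UV-RIP, and 6 were higher in the fRIP IPs. With totals that exclude the Gm26917 and Gm42418 UMIs 1 was enriched and 5 depleted in UV-RIP, and between the IPs 6 were higher in fRIP and 30 in UV-RIP, and over all genes 419 and 505 in UV-RIP and 1162 and 2117 between the IPs. With no fold threshold 66 were enriched and 23 depleted in fRIP, 9 enriched and 83 depleted in UV-RIP, 93 differed towards fRIP, 12 were higher in the fRIP inputs and 90 in the UV-RIP inputs, and 37 were higher in the fRIP IPs and 33 in the UV-RIP IPs. Over all genes that gave 17.6% and 21.9% in fRIP, 6.6% and 29.0% in UV-RIP, 18.6% towards fRIP, 20.2% and 16.96% between the inputs and 27.1% and 9.67% between the IPs. With 200 input UMIs for membership, and so fewer members, 11 were depleted in UV-RIP, 1 differed towards UV-RIP, and 7 were higher in the fRIP IPs and 7 in the UV-RIP IPs. With the length trend removed 1 was enriched and 5 depleted in UV-RIP, 28 differed towards fRIP, and 6 were higher in the fRIP IPs and 22 in the UV-RIP IPs. Causes were not tested.

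Leaving out each replicate in turn gave 27 to 35 enriched and 4 to 7 depleted members in fRIP, 0 enriched and 15 to 19 depleted in UV-RIP, and 42 to 71 differing towards fRIP with 2 to 3 towards UV-RIP. It gave 6 to 7 higher in the fRIP inputs and 52 to 67 in the UV-RIP inputs, and 12 to 18 higher in the IPs of either protocol. Over all genes it gave 7.80% to 8.89% enriched and 9.41% to 11.3% depleted in fRIP, and 0.602% to 0.807% and 4.86% to 5.78% in UV-RIP. For the difference it gave 5.81% to 9.15% towards fRIP and 1.79% to 3.26% towards UV-RIP. Between the inputs it gave 8.39% to 10.6% and 7.19% to 8.83%, and between the IPs 9.67% to 11.1% and 4.02% to 4.93%. The 4 depleted members in fRIP were those without replicate 4.

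With no replicate block, 30 were enriched and 7 depleted in fRIP, 0 and 17 in UV-RIP, and 53 and 2 differed. With a replicate block the inputs gave 6 and 58 and the IPs 13 and 15, and no count moved by over 1.5 times. Over all genes these settings gave 8.56% and 10.7% in fRIP, 0.68% and 5.58% in UV-RIP, and 7.15% and 2.40% for the difference. They gave 10.3% and 9.21% between the inputs and 10.7% and 4.53% between the IPs.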
